A study of Mus musculus with 4 samples.

Results

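The 9 genes described here encode the weapons of cytotoxic lymphocytes and the factors that switch them on, namely the granzymes Gzma, Gzmb and Gzmk, the pore former perforin (Prf1), the granule membrane protein Nkg7, the secreted Ccl5 and Ifng, and the transcription factors Eomes and Tbx21. They were chosen by symbol, and all 9 were found among the 31053 genes of the matrices. Bone marrow mononuclear cells were flushed from the femurs and tibias of C57BL/6 mice and sequenced as single cells by 5′ droplet capture, in which each transcript copy is counted once by its unique molecular identifier (UMI). There were 4 libraries of 1 mouse each: 2 libraries, numbered as replicates 1 and 2, came from mice without Toll-like receptor 9 (TLR9-/-), and the other 2 from wild-type (WT) mice. Both genotypes were untreated, and they were bred in separate cages, so that cage and genotype cannot be told apart. The labels do not give the age of these mice, and they do not say whether a replicate number marks one experiment. The mice were processed as 2 independent experiments, each with a mouse of either genotype, and genotype was fitted without that term.

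Cytotoxic lymphocytes store perforin and granzymes in granules that are released onto a target cell. Perforin opens the target membrane, and granzymes, which are serine proteases, then cleave proteins inside the target and start its death. Natural killer (NK) cells do this without an antigen receptor and carry such granules before any stimulation, whereas resting naive CD8 T cells have to be activated first. Eomes and Tbx21 (T-bet) are related T-box factors known to direct transcription of Ifng and of the granule genes, and Ifng encodes the cytokine by which these cells activate macrophages.

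After filtering, 39167 cells were kept. Marker genes that are no members of the set defined 5 classes. NK cells (320 cells) had at least 2 UMIs on Ncr1, Klrb1c, Klre1, Klra4 and Klra8 and none on Cd3d, Cd3e, Cd3g and Trac. Natural killer-like T cells (307 cells) had at least 2 UMIs on those T-cell genes, at least 1 on the NK genes and none on Cd4, Cd8a or Cd8b1. CD8 T cells (265 cells) and CD4 T cells (72 cells) were split by Cd8a and Cd8b1 against Cd4. Plasmacytoid dendritic cells (2663 cells) had at least 3 UMIs on Siglech, Ccr9, Cox6a2 and Klk1, with Siglech among them. The NK gate held 140 and 39 cells in the TLR9-/- replicates and 97 and 44 in the WT replicates. Genes that the gates did not use went with the names in part: Klri2, Klrc2 and Cd7 summed to between 896 and 1267 CPM (UMIs per 1000000 UMIs of the class) in NK cells and to between 2.58 and 7.85 in B lineage cells. They summed to between 844 and 1419 CPM in natural killer-like T cells and to between 700 and 856 in plasmacytoid dendritic cells. Their sum thus did not tell NK cells from natural killer-like T cells. The T-cell genes Lat, Bcl11b and Cd5 summed to between 34.1 and 94.7 CPM in NK cells, with Cd5 at 0, to between 146 and 383 in natural killer-like T cells and to between 618 and 796 in CD8 T cells. Among the natural killer-like T cells, 36.5% had a Trac UMI. The name thus stands for cells with transcripts of the NK genes and of Cd3d, Cd3e, Cd3g or Trac. Neither their receptor type nor whether all of them are T cells was determined.

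As a check of the labels, the sum of Tlr9 UMIs was 41 and 48 in the libraries of TLR9-/- mice and 120 and 97 in those of WT mice, and it was at 0 in NK cells of all 4 libraries. Median UMIs per cell were 2545 and 3618 in the TLR9-/- replicates and 1759 and 2287 in the WT replicates. Any 2 libraries shared between 112 and 185 cell barcodes. A doublet score marked 17 of the 320 NK cells, 15 of them from TLR9-/- mice, and these few cells held 49.9% of the NK UMIs of TLR9-/- replicate 2 and 17.2% of those of TLR9-/- replicate 1, against 0% and 8.39% in the WT replicates. The genotype levels and shares in NK cells were therefore also computed without them.

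The 9 genes lie on 6 chromosomes of GRCm38 (GENCODE vM21). Gzma (ENSMUSG00000023132, chr13:113093825-113100981) and Gzmk (ENSMUSG00000042385, chr13:113171608-113225908) both lie on the minus strand of chromosome 13, while Gzmb (ENSMUSG00000015437, chr14:56258838-56262260) belongs to the cluster on chromosome 14. Prf1 (ENSMUSG00000037202, chr10:61297833-61304680) and Ifng (ENSMUSG00000055170, chr10:118441046-118445892) share chromosome 10, and Ccl5 (ENSMUSG00000035042, chr11:83525778-83530518) and Tbx21 (ENSMUSG00000001444, chr11:97098071-97115331) share chromosome 11. Nkg7 (ENSMUSG00000004612) lies at chr7:43437073-43438249 and Eomes (ENSMUSG00000032446) at chr9:118478212-118486132.

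The 250 bases before the RefSeq start (GRCm38.p6) are shown for Gzma, Gzmb and Prf1, the granule genes with the widest gap between NK cells and T cells below, and for Nkg7, the member with most of its UMIs outside lymphocytes. They are written 5′ to 3′ on the strand of the gene, and capitals mark matches on either strand to AGGTGT, a core bound by T-box factors, to TGTGGT, a core bound by Runx factors, or to TTCNNNGAA, the STAT pattern.
Gzma, chr13:113100982-113101231, minus strand: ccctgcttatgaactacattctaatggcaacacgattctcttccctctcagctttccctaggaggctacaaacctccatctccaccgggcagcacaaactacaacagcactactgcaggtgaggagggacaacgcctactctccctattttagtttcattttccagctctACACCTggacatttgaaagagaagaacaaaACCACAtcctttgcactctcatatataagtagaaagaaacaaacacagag
Gzmb, chr14:56262335-56262584, minus strand: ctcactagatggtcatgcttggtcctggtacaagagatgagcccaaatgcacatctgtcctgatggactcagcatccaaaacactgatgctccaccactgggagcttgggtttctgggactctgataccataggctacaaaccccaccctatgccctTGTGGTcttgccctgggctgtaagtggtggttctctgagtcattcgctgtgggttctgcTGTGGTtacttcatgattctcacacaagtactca
Prf1, chr10:61297586-61297835, plus strand: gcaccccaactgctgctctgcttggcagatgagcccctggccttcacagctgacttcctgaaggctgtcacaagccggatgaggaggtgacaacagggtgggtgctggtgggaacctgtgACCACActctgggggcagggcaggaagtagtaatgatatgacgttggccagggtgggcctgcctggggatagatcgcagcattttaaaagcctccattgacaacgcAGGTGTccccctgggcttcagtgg
Nkg7, chr7:43436888-43437137, plus strand: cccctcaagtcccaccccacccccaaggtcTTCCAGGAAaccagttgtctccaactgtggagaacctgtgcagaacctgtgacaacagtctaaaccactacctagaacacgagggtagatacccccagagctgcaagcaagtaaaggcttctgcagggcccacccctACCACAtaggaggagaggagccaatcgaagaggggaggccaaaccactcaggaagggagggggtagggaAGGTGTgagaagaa
AGGTGT was found in 4 of the 8 members in the promoter table (Gzma, Gzmk, Prf1 and Nkg7) and in 11.8% of all 32851 promoters. TGTGGT was found in Gzma, Gzmb, Prf1 and Nkg7 and in 14.0% of all promoters, and TTCNNNGAA in Nkg7 and Ifng and in 7.02% of all. The matches describe these letters only and are no evidence of binding. In Gzma the Runx match begins 50 bases and the T-box match 80 bases before the start, in Prf1 they begin 130 and 24 bases before it, and Gzmb has 2 Runx matches, 93 and 34 bases before it.

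For 7 of the 9 genes, NK cells held more UMIs than any other gated class. NK cells held 5959 of the 8713 Gzma UMIs (68.4%), 188 of the 336 Prf1 UMIs (56.0%) and 169 of the 348 Gzmb UMIs (48.6%), although they were 320 of 39167 cells. They also held 39.9% of the Eomes UMIs, 33.6% of the Ccl5 UMIs and 24.6% of the Tbx21 UMIs, with natural killer-like T cells next at 19.4%, 23.7% and 23.7%. Ifng had only 207 UMIs in all, 23.7% in NK cells, 19.3% in natural killer-like T cells and 29.5% in cells of no class. Gzmk was the exception among the granzymes by count, since 27 of its 70 UMIs (38.6%) came from CD8 T cells and 11 from NK cells. Its CD8 UMIs were 18 and 7 in the TLR9-/- replicates and 2 and 0 in the WT replicates, too few to order the levels of the classes. Nkg7 differed most from the others: 37978 of its 55576 UMIs (68.3%) came from cells outside the other gates with at least 20 UMIs on Mpo, Elane, Prtn3 and Ctsg, the genes of primary neutrophil granules (primary granule progenitors), and 12.7% from the 5 classes. Cells with at least 20 UMIs on the basophil genes Mcpt8, Prss34 and Cpa3 held 27 of the Gzmb UMIs (7.76%). Both of these gates were added after it was seen where the Nkg7 and Gzmb UMIs lay.

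**Figure D1:**
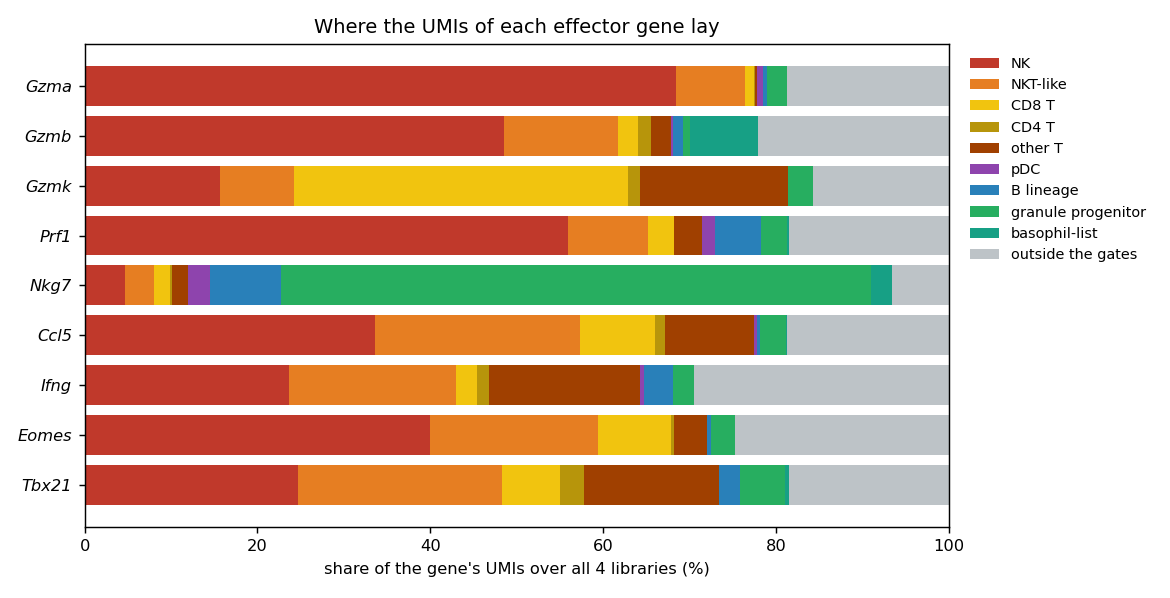
Share of each gene's UMIs over all 4 libraries by cell class (x axis, percent), with 1 bar per gene. NK cells hold 68.4% of the Gzma UMIs, while 68.3% of the Nkg7 UMIs lie in primary granule progenitors.

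Gzma, a tryptase of the granule, was present in NK cells at 6823 and 6547 CPM in the TLR9-/- replicates and at 11639 and 9944 in the WT replicates. In natural killer-like T cells it was at 603, 1108, 873 and 215 in the same order, and in CD8 T cells at 97.3, 3.45, 567 and 265. The lowest NK library thus lay above the highest library of either T-cell class. Classes were compared within mice by edgeR's quasi-likelihood test on UMIs summed per class and library, with the library as a block and p values adjusted over all genes tested, and differences are on the log2 scale. Gzma was higher in NK than in CD8 T cells by 5.71 ± 0.49 (SE, adjusted p = 3.39e-06 over 2551 genes) and higher than in natural killer-like T cells by 3.56 ± 0.29 (adjusted p = 2.59e-06 over 2650 genes). CD4 T cells had Gzma UMIs in 1 library only, 11 UMIs in TLR9-/- replicate 2.

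Gzmb, the granzyme that activates caspases, was at 123 and 234 CPM in TLR9-/- NK cells and at 409 and 355 in WT NK cells. In natural killer-like T cells it was at 31.0, 25.5, 172 and 0, and in CD8 T cells at 13.9, 0, 30.7 and 20.4, the latter from 8 UMIs in all. NK cells exceeded CD8 T cells by 3.97 ± 0.44 (adjusted p = 2.05e-05) and natural killer-like T cells by 2.06 ± 0.35 (adjusted p = 0.00253), although WT replicate 1 had 172 CPM in natural killer-like T cells, and this second call was lost without the library block (2.14, adjusted p = 0.169). Prf1 was at 202 and 208 CPM in TLR9-/- NK cells and at 362 and 380 in WT NK cells. Natural killer-like T cells had 33.4, 32.8, 39.7 and 33.1 CPM, and the 2 classes did not overlap. CD8 T cells had 10 Prf1 UMIs, all from TLR9-/- mice. Their CD8 classes held 359812 and 289861 UMIs of all genes, against 65221 and 48971 in WT mice, so the 0 in WT mice is weakly bounded. CD4 T cells had 0 Prf1 UMIs in 246300 UMIs, which allows up to 12.2 CPM. Prf1 was higher in NK cells than in CD8 T cells by 3.92 ± 0.38 (adjusted p = 8.43e-06) and than in natural killer-like T cells by 2.73 ± 0.24 (adjusted p = 4.11e-06). Gzmb and Prf1 were tested against both T-cell classes because of their NK levels. The filter thus gave the direction of these differences, and their p values are no further support for it.

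Gzmk, a granzyme of memory-like T cells, had too few UMIs for a test within the classes. CD8 T cells had 50.0, 24.1, 30.7 and 0 CPM, NK cells 19.6, 6.31, 20.5 and 0, and natural killer-like T cells 11.9, 3.64, 0 and 0. WT replicate 2 had 0 Gzmk UMIs in all of its cells. The classes overlapped, and no order can be read from 27, 11 and 6 UMIs. Plasmacytoid dendritic cells had 0 in 10578655 UMIs, which allows up to 0.284 CPM.

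Nkg7, needed for granule exocytosis, was at 3281, 2569, 4612 and 4054 CPM in NK cells (TLR9-/- replicates 1 and 2, then WT replicates 1 and 2). It was at 2088, 2069, 2116 and 1687 in natural killer-like T cells and at 1412, 1335, 1227 and 1246 in CD8 T cells. These 3 classes did not overlap and stood in this order in each mouse. NK cells exceeded CD8 T cells by 1.22 ± 0.15 (adjusted p = 4.52e-05) and natural killer-like T cells by 0.73 ± 0.15 (adjusted p = 0.0112), and natural killer-like T cells exceeded CD8 T cells by 0.51 ± 0.13 (adjusted p = 0.0442). The last 2 calls were the weaker ones: the NK difference passed in 8 of 12 alternatives (0.59 to 0.89) and the T-cell difference in 6 of 12 (0.42 to 0.64). CD4 T cells ranged from 171 to 1564 CPM, with the highest value in WT replicate 1, where 11 cells also held 27187 CPM of primary granule genes. Primary granule progenitors carried Nkg7 at 542, 752, 616 and 740 CPM and the basophil-gene cells at 656, 696, 726 and 612, levels below every CD8 T-cell library.

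Ccl5 (RANTES), a chemokine that draws T cells and monocytes, was at 14050, 18687, 24022 and 23334 CPM in NK cells. Natural killer-like T cells had 10698, 8514, 12298 and 11513 CPM and CD8 T cells 5781, 2077, 6394 and 7168, again in separate ranges. The differences were 1.80 ± 0.21 for NK against CD8 T cells (adjusted p = 3.14e-05), 0.78 ± 0.12 for NK against natural killer-like T cells (adjusted p = 0.000838) and 1.04 ± 0.17 for natural killer-like T against CD8 T cells (adjusted p = 0.00239). Both of the latter calls were lost without the library block (0.78, adjusted p = 0.109, and 0.92, adjusted p = 0.255). The 478 T cells of none of these classes had between 2859 and 5098 CPM, which overlapped CD8 T cells. CD4 T cells had 514, 3200, 373 and 79.7 CPM. Against them CD8 T cells were higher by 3.17 ± 0.91, which missed the threshold (adjusted p = 0.117 over 1024 genes) but passed in 4 of 12 alternatives, among them DESeq2 (3.62). Ifng, the effector cytokine, was rare in these cells. It was at 87.0, 37.9, 61.4 and 38.0 CPM in NK cells and at 40.5, 14.6, 126 and 0 in natural killer-like T cells, from 49 and 40 UMIs. The ranges overlapped, and the difference of 0.40 ± 0.47 did not pass (adjusted p = 0.854).

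Eomes, which marks mature conventional NK cells, was at 143, 114, 150 and 279 CPM in NK cells, at 83.4, 36.4, 52.9 and 33.1 in natural killer-like T cells and at 22.2, 34.5, 61.3 and 40.8 in CD8 T cells. The NK range stood above both T-cell ranges, which overlapped each other. NK cells were higher than CD8 T cells by 1.94 ± 0.31 (adjusted p = 0.000628) and higher than natural killer-like T cells by 1.26 ± 0.29 (adjusted p = 0.0219), a call that passed in 6 of 12 alternatives (1.06 to 1.73). Tbx21, the second T-box factor, was at 70.2, 63.1, 88.7 and 50.7 CPM in NK cells and at 69.1, 51.0, 33.1 and 33.1 in natural killer-like T cells. Unlike for Eomes, these 2 ranges overlapped, with a difference of 0.32 ± 0.33 (adjusted p = 0.819). CD8 T cells, at 16.7, 17.2, 30.7 and 20.4 CPM, lay below both, and the NK difference of 1.62 ± 0.46 passed (adjusted p = 0.0331). Of 12 alternatives 7 tested Tbx21, and it failed in 3 of these, among them DESeq2 and the fit without WT replicate 1. Against CD8 T cells, Eomes and Tbx21 were tested because of their NK levels. The filter thus gave their direction there, and those p values are no further support for it. Plasmacytoid dendritic cells had 0 UMIs of Eomes and of Tbx21.

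**Figure D2:**
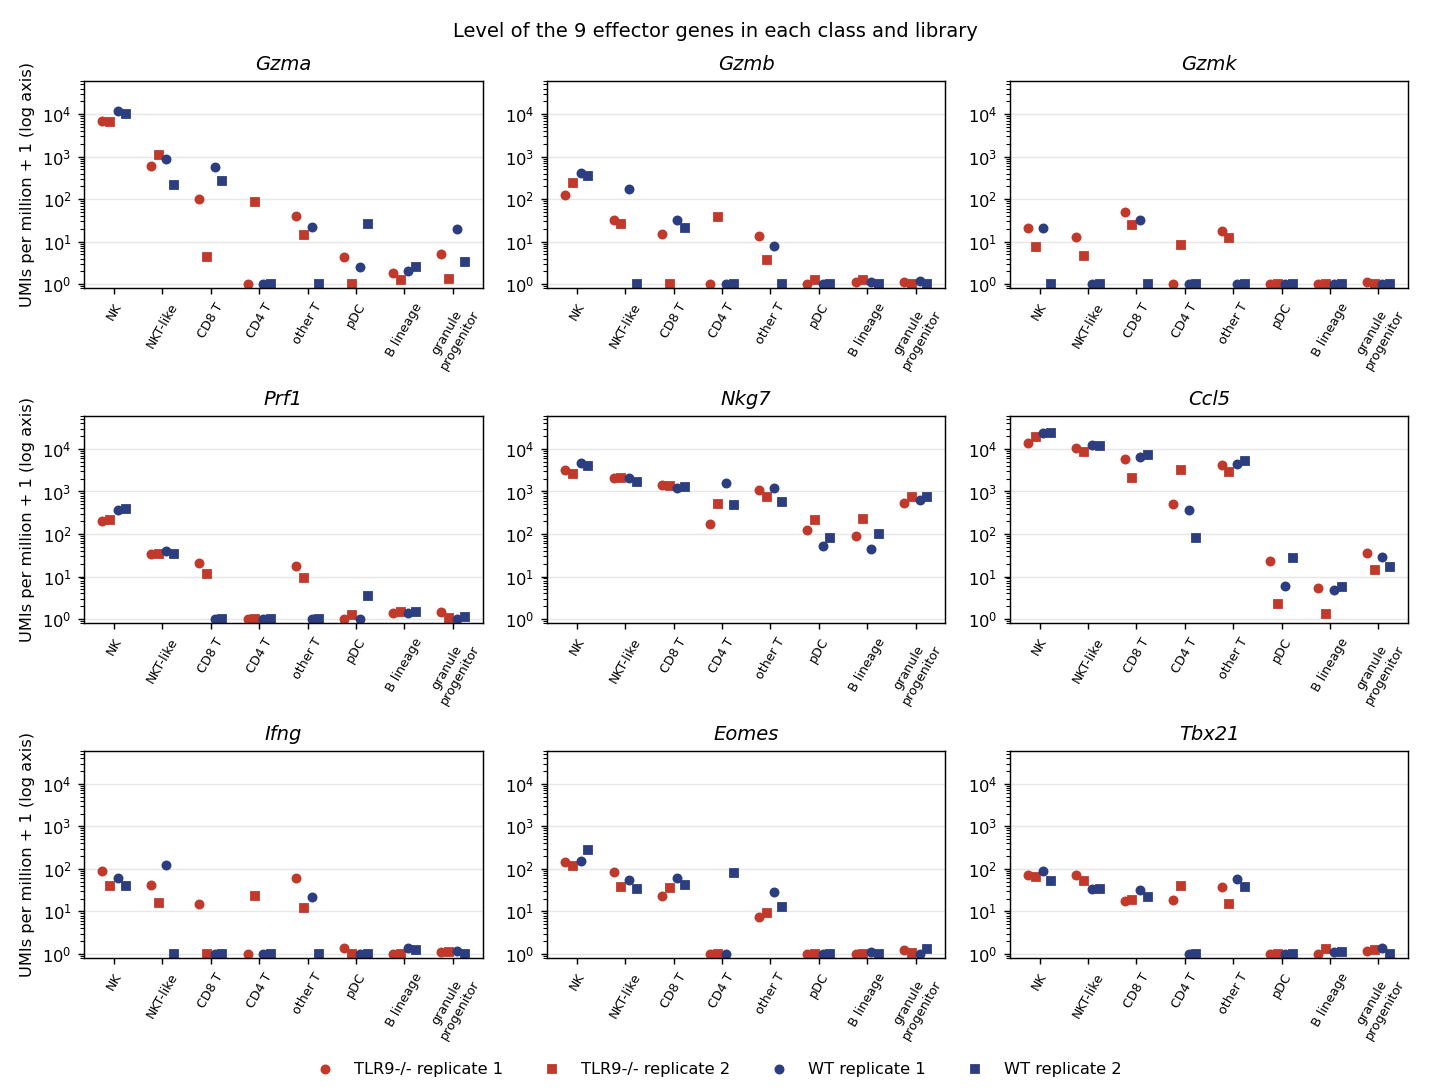
Level of each gene (y axis, CPM plus 1, log axis) in 8 cell classes, with 1 point per library, circles for replicate 1 and squares for replicate 2. For Gzma, Gzmb, Prf1, Nkg7 and Ccl5 the 4 NK points lie above all CD8 T-cell points, and Nkg7 alone stays high in granule progenitors.

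Between NK and CD8 T cells, 7 members had enough UMIs to be tested and all 7 of these were called higher in NK cells, where 5.53% of the 2551 genes tested were called higher and 7.64% lower. Of these, Gzmb, Prf1, Eomes and Tbx21 had between 8 and 24 UMIs in CD8 T cells and were tested because of their NK levels, so their direction was given by the filter. Gzma, Nkg7 and Ccl5 were also tested within CD8 T cells. Between NK and natural killer-like T cells 6 of 8 tested members were higher and 0 lower, beside 1.58% of 2650 genes higher and 1.81% lower, and Gzmb and Prf1 were again tested because of their NK levels. Ifng was tested within neither class alone, and its highest levels were 87.0 CPM in NK cells and 126 in natural killer-like T cells. Between natural killer-like T and CD8 T cells 2 of 5, Nkg7 and Ccl5, were higher, beside 1.51% of 3382 genes higher and 1.60% lower. There the Gzma difference of 2.27 ± 0.64 missed the threshold (adjusted p = 0.0769). Between CD8 and CD4 T cells 0 of 3 tested members passed in edgeR, 2 of them at an unadjusted p under 0.05 (13.7% of all genes tested) and 2 called by DESeq2, beside 3.52% of 1024 genes called higher and 0.586% lower.

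**Figure D3:**
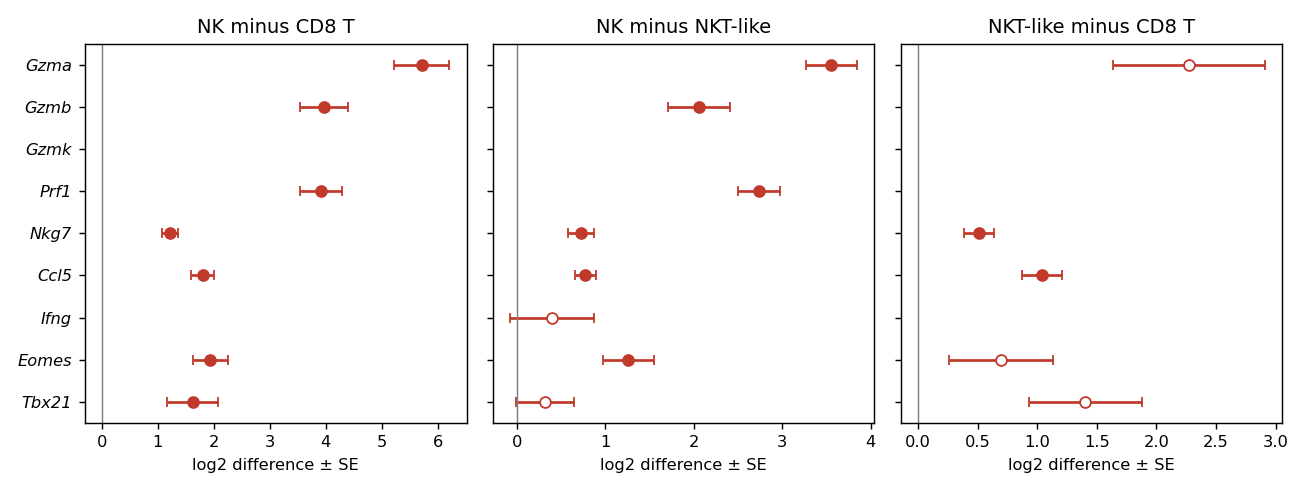
Log2 difference between classes (x axis) for each member tested, with the standard error as bars. Filled points passed the adjusted threshold, as did all 7 members tested in NK cells against CD8 T cells. Of these, Gzmb, Prf1, Eomes and Tbx21 were tested because of their NK levels.

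In single cells the granule genes were seen together in part of the NK cells. With each cell thinned to 1000 UMIs and shallower cells left out, Gzma was seen in 81.8%, 78.4%, 93.4% and 89.5% of NK cells (TLR9-/- replicates 1 and 2, then WT replicates 1 and 2), Prf1 in 20.7%, 16.2%, 34.4% and 36.8%, and Gzmb in 15.7%, 16.2%, 29.5% and 26.3%. The same thinning found Gzma in 0.0669% ± 0.0946 of TLR9-/- B lineage cells and in 0.138% ± 0.0342 of WT B lineage cells (SD, n = 2), which should lack it. Both Gzmb and Prf1 were seen in 5.79%, 5.41%, 19.7% and 21.1% of NK cells. Without the marked doublets these joint shares were 6.14%, 6.90%, 19.7% and 21.6%. At least 4 of the 9 members were seen in 38.8% and 40.5% of TLR9-/- NK cells and in 60.7% and 57.9% of WT NK cells, and without the marked doublets in 41.2% and 51.7% against 60.7% and 59.5%. With the marked doublets kept, these shares rest on 121, 37, 61 and 38 cells. The shares of cells with several members were computed at 1000 UMIs only and have no share of all genes beside them.

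The wider pathway moved in part with the members. Of all 2551 genes tested between NK and CD8 T cells, 5.53% were called higher in NK cells and 7.64% lower. Of the other granzymes and death ligands, 1 of 9 was tested between NK and CD8 T cells, the death ligand Fasl, which was higher in NK cells by 2.22 ± 0.60 (adjusted p = 0.0246). Of 14 genes of granule maturation and release 9 were tested, and 2 were higher in NK cells, both of them inhibitors that shield cells from granzymes: Serpinb9 by 3.51 ± 0.41 and Serpinb6b by 2.85 ± 0.41. The other 7 did not pass, among them the granule protease Ctsw (0.58 ± 0.18, adjusted p = 0.0525), and the median of the 9 was 0.61. Of 7 chemokines and receptors 4 were tested and 3 were higher in NK cells, among them Ccl3 by 4.10 ± 0.36 and Ccl4 by 1.50 ± 0.31. Of 12 genes of the interferon gamma axis 7 were tested, 4 were higher (Il18rap by 2.71 ± 0.43, Il2rb by 1.68 ± 0.27, Il18r1 and Ifngr1) and 1 was lower. Of 10 factors that act with Eomes and Tbx21 7 were tested. Id2 (1.59 ± 0.28), Zeb2 (1.69 ± 0.43) and Ikzf3 (1.01 ± 0.30) were higher, and Tcf7, the factor of naive T cells, was lower (-1.92 ± 0.29). Within CD8 T cells alone, 0, 5, 2, 6 and 6 genes of these lists, in the same order, had enough UMIs to be tested. Those tested here because of their NK levels, Fasl among them, had their direction given by the filter.

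Against natural killer-like T cells, NK cells had more Ccl3 (2.01 ± 0.25) and Ccl4 (1.66 ± 0.23) and less Xcl1 (-0.70 ± 0.17), and all 4 genes tested of the chemokine list passed, 3 higher and 1 lower. Of all 2650 genes tested in this contrast, 1.58% were called higher and 1.81% lower. Serpinb6b and Serpinb9 were each higher by 1.19, whereas Lyst, a regulator of granule size, was lower (-1.70 ± 0.37), and the other 7 of 10 granule genes tested did not pass. Klf2 (1.13 ± 0.19) and Zeb2 (1.56 ± 0.35) were higher and Hopx was lower (-0.87 ± 0.17) among 7 factors tested. None of the 7 interferon gamma axis genes tested passed in edgeR. Within natural killer-like T cells alone 9 granule genes and 6 factors had enough UMIs to be tested, and within NK cells alone 9 and 7. Any gene tested in this contrast only because of its level in 1 class had its direction given by the filter. Natural killer-like T cells in turn had more Xcl1 (2.01 ± 0.47), Ccl3 (2.13 ± 0.52), Serpinb9 (2.40 ± 0.55), Il2rb (1.72 ± 0.22), Il18rap (2.10 ± 0.48), Id2 (1.52 ± 0.21) and Hopx (0.88 ± 0.20) than CD8 T cells, and less Klf2 (-1.17 ± 0.21) and Tcf7 (-1.01 ± 0.20). Of all 3382 genes tested there, 1.51% were called higher and 1.60% lower. This contrast tested 4 chemokine and 10 granule genes, against 2 and 5 within CD8 T cells alone. Genes tested because of their levels in natural killer-like T cells had their direction given by the filter. Between CD8 and CD4 T cells, Ctsw was the one list gene called (1.57 ± 0.30, adjusted p = 0.0237), beside 3.52% of 1024 genes higher and 0.586% lower.

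The genes most like each member were sought over the 20 sums of 5 classes and 4 libraries, by Pearson's r of log2 values among 2908 genes, as a description of points that share libraries. Prf1 was most like the NK receptor gene Klra9 (r = 0.962), Gzma like Klrb1a (0.935), Gzmb like Adamts14 (0.911), Nkg7 like Ctsw (0.958), Ccl5 like Ifitm10 (0.962), Eomes like Klrc2 (0.910), Tbx21 like Sytl3 (0.941) and Ifng like Klrb1f (0.860). Gzmk had no gene above Pdcd10 (0.684). Among the members, Gzma and Gzmb had r = 0.921 and Ccl5 and Tbx21 r = 0.934, whereas Gzmk had r between 0.252 and 0.456 with the others.

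Plasmacytoid dendritic cells were all but free of the granule genes. They had 1 Gzmb UMI and 5 Prf1 UMIs in 10578655 UMIs. Against B lineage cells, Ccl5 was called higher (1.89 ± 0.33, adjusted p = 0.00169) and so was Gzma (2.59 ± 0.65, adjusted p = 0.0101), 2 of 3 members tested, but 24.8% of the 11992 genes were called higher there and 24.3% lower. Gzma was at between 0.221 and 1.53 CPM in B lineage cells and was tested because of its plasmacytoid levels, so its direction was given by the filter. Of the 54 Gzma UMIs in plasmacytoid cells 42 came from WT replicate 2, and without that library the Gzma difference was 1.07 and no longer passed (adjusted p = 0.234), nor did it in DESeq2 (1.80, adjusted p = 0.0529). Ccl5 was at 22.0, 1.27, 5.09 and 26.8 CPM in these cells, far under any NK library, and its call was lost without the marked doublets (1.16, adjusted p = 0.166) and without the library block (1.91, adjusted p = 0.0943). Nkg7 stood at 125, 217, 52.1 and 80.4 CPM in plasmacytoid cells and at 89.9, 221, 42.4 and 99.8 in B lineage cells, a difference within the error (0.09 ± 0.12, adjusted p = 0.580) that passed with stricter gates (0.62, adjusted p = 0.00239) and without lineage exclusions (0.43, adjusted p = 0.0354). The primary granule genes moved with it, at 5624, 10178, 2172 and 2355 CPM in plasmacytoid cells and 4526, 10797, 1809 and 3979 in B lineage cells; their part in the Nkg7 values was not tested.

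The question put to genotype was whether cytotoxic cells of TLR9-/- marrow carry less or more of these transcripts. In NK cells, 6 of the 9 members were lower in both TLR9-/- replicates than in both WT replicates, namely Gzma, Gzmb, Prf1, Nkg7, Ccl5 and Eomes. The same order held for 19.1% of the 2175 genes tested. It also held for the sum of the 5 NK genes of the gate, at 2944 and 2393 CPM against 3766 and 3230. Median UMIs per NK cell were 1742 and 2591 in the TLR9-/- replicates and 1143 and 1582 in the WT replicates. The part of the gate and of depth in the lower levels was not tested. In edgeR, which tested 7 members, 0 passed the adjusted threshold and 5 had an unadjusted p under 0.05 with lower TLR9-/- levels, as did 3.40% of all genes tested; DESeq2 called 0 members too. The differences were -0.71 ± 0.19 for Gzma, -1.18 ± 0.37 for Gzmb, -0.87 ± 0.29 for Prf1, -0.59 ± 0.22 for Nkg7 and -0.56 ± 0.20 for Ccl5 (adjusted p = 0.508 for each). Eomes (-0.65 ± 0.38, adjusted p = 0.646) and Tbx21 (-0.15 ± 0.44, adjusted p = 0.983) were further from the threshold. The median of the 7 was -0.65, against 0.01 for all genes tested. Ccl5 was called without TLR9-/- replicate 2 (-0.75, adjusted p = 0.00295), whereas no other member passed without any of the libraries. Across all genes 0.046% were called in either direction, which was 1 gene, BC018473, named after its values were seen. It had 105 and 43 UMIs in TLR9-/- NK cells and 0 in WT NK cells. This was not particular to NK cells, since over all cells BC018473 had 7673 and 14319 UMIs in the TLR9-/- replicates and 2 and 0 in the WT replicates.

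Without the 17 marked doublets this separation shrank. Gzma was then at 7935 and 10760 CPM in TLR9-/- NK cells and at 11639 and 10247 in WT NK cells, so that the groups overlapped. Ccl5 was at 16449 and 31624 against 24022 and 24615, with TLR9-/- replicate 2 now above both WT replicates. Eomes overlapped as well, at 146 and 151 against 150 and 290. Gzmb (146 and 365 against 409 and 387), Prf1 (230 and 353 against 362 and 401) and Nkg7 (3762 and 3994 against 4612 and 4204) remained lower in both TLR9-/- replicates, with TLR9-/- replicate 2 close to WT. The share of all genes with levels in this order was not computed without the marked cells, so it cannot be said whether these members exceed it. The differences became -0.25 for Gzma, -0.81 for Gzmb, -0.46 for Prf1, -0.21 for Nkg7 and -0.04 for Ccl5 (adjusted p = 0.999 for each). Genes of other lineages went with the marked cells: the primary granule list summed to 4976 and 1080 CPM in all TLR9-/- NK cells and to 252 and 393 in WT NK cells, and without the marked cells to 2430 and 139 against 252 and 429. The erythroid list (Hbb-bs, Hba-a1, Car2) went from 1465 and 1673 against 628 and 393 to 380 and 428 against 628 and 415. The NK genes of the gate then summed to 3386 and 3956 CPM against 3766 and 3333, so that the groups overlapped. The part of these lists in the remaining difference was not tested.

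**Figure D4:**
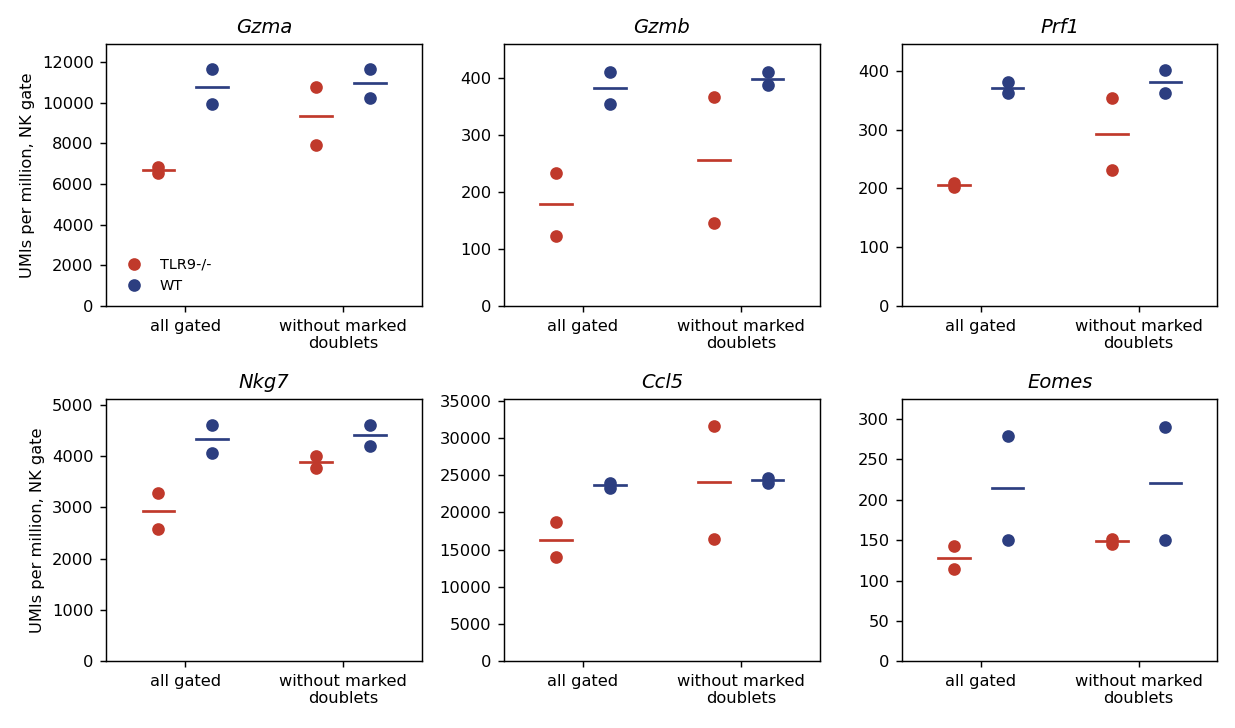
Level of 6 members in NK cells (y axis, CPM, from 0) for all gated cells and without the marked doublets, with 1 point per library and the genotype mean as a line. Without the marked cells the groups overlap for Gzma, Ccl5 and Eomes, while Gzmb, Prf1 and Nkg7 stay lower in both TLR9-/- replicates. The share of all genes in that order was not computed without the marked cells.

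Shares of cells weigh each NK cell alike, whatever its depth. At 1000 UMIs per cell, Prf1 was seen in 18.4% ± 3.14 of TLR9-/- and 35.6% ± 1.71 of WT NK cells (SD, n = 2), Gzmb in 16.0% ± 0.363 and 27.9% ± 2.26, and Gzma in 80.1% ± 2.43 and 91.5% ± 2.81. Ccl5 (89.8% ± 8.54 and 97.0% ± 0.458) and Eomes (11.6% ± 1.12 and 24.5% ± 13.8) were also seen less often in both TLR9-/- replicates, which made 5 of 9 members, beside 14.6% of the 2561 genes seen in at least 5% of NK cells on average. The exact permutation test, two-sided, gave p = 0.33 for each, the smallest that 2 libraries against 2 allow. Without the marked doublets, Prf1 was seen in 21.3% ± 0.877 and 36.1% ± 2.41 and Gzmb in 18.7% ± 2.84 and 28.3% ± 1.75, still with no overlap, and so were Gzma and Eomes, while Ccl5 overlapped, beside 15.4% of the same genes. The order depended on the thinning depth: it held for 4 members at 500 UMIs, where 1 member was higher in both TLR9-/- replicates, and for 2 at 2000 UMIs (Gzma and Nkg7), where 58, 28, 11 and 11 NK cells remained. Without thinning it held for 1 (Nkg7), while Gzmk, Ifng and Tbx21 were higher in both TLR9-/- replicates. The share of all genes in this order was computed at 1000 UMIs only, so these counts have no such share beside them. The Prf1 difference was -17.2 percentage points at 1000 UMIs, -11.5 at 500, -7.30 with overlap at 2000 and -2.93 with overlap without thinning, and that of Gzmb was -12.0, -7.25, -7.24 with overlap and -6.17 with overlap. Gzma differed by -13.9 points at 2000 UMIs and by -1.18 with overlap without thinning. The exact 95% binomial intervals of single libraries are wide: for Prf1 they ran from 6.19% to 32.0% in TLR9-/- replicate 2 (6 of 37 cells) and from 22.7% to 47.7% in WT replicate 1 (21 of 61 cells). They cover counting error only. Nkg7 was seen in 94.9% ± 3.35 and 96.2% ± 1.62 and Tbx21 in 8.71% ± 2.97 and 7.05% ± 6.25, with overlap. The thinning left out 19, 2, 36 and 6 of the NK cells as shallower than 1000 UMIs.

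**Figure D5:**
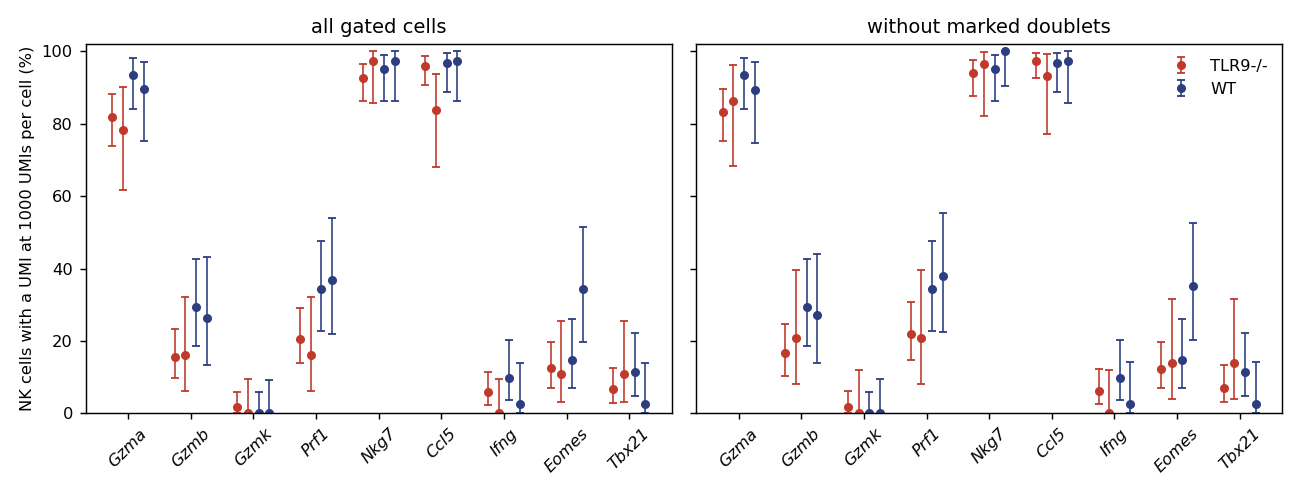
Share of NK cells with a UMI of each member at 1000 UMIs per cell (y axis, percent), with 1 point per library and exact 95% binomial intervals, for all gated cells and without the marked doublets. In both panels the Prf1 and Gzmb points of the TLR9-/- libraries lie under those of the WT libraries, with intervals that overlap.

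In natural killer-like T cells Ccl5 was lower and Tbx21 higher in both TLR9-/- replicates, the other members tested overlapped, beside 13.4% of 2828 genes lower and 25.5% higher in both, and 0 of 5 tested passed in edgeR or had an unadjusted p under 0.05, beside 0.0354% of these genes called, which was BC018473 again. DESeq2 called 0 members as well. Tbx21 had 29 and 14 UMIs in the TLR9-/- replicates of this class and 5 and 2 in the WT replicates, so its order is weakly based. Gzma (0.48 ± 0.53), Eomes (0.33 ± 0.61), Tbx21 (0.79 ± 0.55) and Nkg7 (0.03 ± 0.24) had positive differences and Ccl5 (-0.40 ± 0.20) a negative one. In this class the primary granule list summed to 1771 and 16984 CPM in the TLR9-/- replicates and to 2440 and 248 in the WT replicates. The erythroid list summed to 348 and 2452 against 15154 and 149. Marked doublets held 6.14% and 26.8% of the UMIs against 15.6% and 18.3%. Their part in these differences was not tested. In CD8 T cells 5 of the 9 members were lower and 2 higher in both TLR9-/- replicates. Gzmb, Eomes and Tbx21 (lower) and Prf1 (higher) were not tested, with 8, 24, 14 and 10 UMIs in this class. In the WT replicates these were 2 and 1, 4 and 2, 2 and 1, and 0 and 0 UMIs, so no order can be read from them. Among the 3 tested, Gzma and Ccl5 were lower and Nkg7 higher in both TLR9-/- replicates, beside 17.9% of 2257 genes lower and 21.4% higher in both. However, 0 of 3 passed in edgeR and 0 in DESeq2, beside 0% of these genes called. Of all genes 146 (6.47%) had an unadjusted p under 0.05, among them 1 member, Gzma. Gzma had the widest gap there, at 97.3 and 3.45 CPM against 567 and 265 (-3.02 ± 0.80, unadjusted p = 0.00479, adjusted p = 0.601 in edgeR), from 35, 1, 37 and 13 UMIs. It passed in 3 of 12 alternatives, among them the fits without TLR9-/- replicate 1 and without WT replicate 2. Ccl5 passed without TLR9-/- replicate 1 (-1.69, adjusted p = 2.38e-05) and in no other alternative. Marked doublets held 17.1% and 5.31% of the CD8 UMIs of the TLR9-/- replicates and 4.17% and 0% of those of the WT replicates. Without them Ccl5 was at 6800 and 2077 CPM in TLR9-/- and at 6656 and 7168 in WT CD8 T cells, so that the groups overlapped. The primary granule list summed to 1698 and 12413 CPM in TLR9-/- CD8 T cells and to 0 and 123 in WT CD8 T cells, and its part in the Gzma gap was not tested. Gzmk, not tested, was seen in 5.52% ± 0.641 of TLR9-/- and 1.79% ± 2.53 of WT CD8 T cells at 1000 UMIs per cell (exact permutation p = 0.33). CD4 T cells numbered 20, 35, 11 and 6, and genotype was not tested in them.

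Whether the genotype difference itself differed between classes was tested as an interaction. No member passed in edgeR between NK and CD8 T cells (7 tested, beside 0% of 2551 genes called), between NK and natural killer-like T cells (8 tested, beside 0% of 2650) or between natural killer-like T and CD8 T cells (5 tested, beside 0.0296% of 3382). At an unadjusted p under 0.05 there were 3, 2 and 1 members, beside 4.51%, 3.74% and 3.96% of all genes tested, and DESeq2 called 0 members in each. Without the low-count filter Gzma passed in all 3 interactions (2.24, -1.44 and 3.42 in the order above, adjusted p = 3.59e-07, 2.24e-09 and 1.88e-10) and Nkg7 between NK and CD8 T cells (-0.94, adjusted p = 0.00759). No other alternative called a member.

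Over all cells, where fewer cells of a type and less RNA per cell cannot be told apart, 0 of the 9 members passed in edgeR, beside 0.268% of 14194 genes called. An unadjusted p under 0.05 was found for Nkg7 and Gzmk and for 17.1% of all genes, and the same 2 members were higher in both TLR9-/- replicates, as were 25.1% of all genes. Nkg7 was at 309 and 380 CPM in TLR9-/- and at 197 and 232 in WT marrow (0.68 ± 0.17, adjusted p = 0.172), a difference that passed in 2 of 10 alternatives, among them DESeq2 (0.69, adjusted p = 0.0133). Within primary granule progenitors Nkg7 was at 542 and 752 against 616 and 740 and did not differ beyond its error (-0.17 ± 0.21, adjusted p = 0.781), with 0.288% of 11452 genes called. These progenitors were 13.3% and 13.2% of the TLR9-/- cells and 4.65% and 6.99% of the WT cells. Gzmk was at 0.916 and 0.297 CPM in TLR9-/- and at 0.160 and 0 in WT marrow (3.02 ± 1.16, adjusted p = 0.283), beside CD8 T cells that were 1.28% and 0.886% of the TLR9-/- cells and 0.265% and 0.225% of the WT cells. Gzma, Gzmb, Prf1, Ccl5, Ifng, Eomes and Tbx21 overlapped between the genotypes. In plasmacytoid dendritic cells, where 2 members were tested and 0.374% of 9893 genes were called, Nkg7 was higher in both TLR9-/- replicates (1.38 ± 0.28), as were 20.7% of all genes, without passing in edgeR (adjusted p = 0.102). It passed in 4 of 12 alternatives, among them DESeq2 (1.38, adjusted p = 0.00472) and the fit without TLR9-/- replicate 1 (1.72). The primary granule sums in the same cells, given above, were also higher in both TLR9-/- replicates, and their part in this difference was not tested.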

How the data were processed

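The deposited files held raw UMI counts per gene and cell barcode for each library, which the authors made with Cell Ranger 3.0.1 (per the file headers; STAR, mm10) before libraries were aggregated. The submitters' processing notes also name Seurat 2.3.4. Cell labels of the study were not used here. Barcodes with 200 to 10000 genes and at most 10% mitochondrial UMIs were kept, which left between 8895 and 10781 cells and between 31210188 and 63958243 UMIs per library. Cells were gated on marker UMIs. All gates left out cells with 5% or more of their UMIs on granulocyte and monocyte genes, except the 2 gates for primary granule progenitors and basophil-gene cells, and the lymphocyte gates also left out cells with at least 2 UMIs on the B-lineage genes Cd79a, Cd79b and Ebf1 or on the plasmacytoid genes. The members and all gene lists were chosen with earlier results of these data known.

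Counts were summed per class and library and fitted with edgeR 4.0.16 (TMM, filterByExpr, quasi-likelihood test, R 4.3.3), with Benjamini-Hochberg adjustment over all genes tested and a threshold of 0.05. Genotype fits had 2 libraries per group and no block, and class fits had the library as a block. A class entered a genotype fit only with at least 10 cells in every library. Class fits had no such minimum, and the fit of CD8 against CD4 T cells held 6 CD4 T cells in WT replicate 2. DESeq2 1.42.0 was an alternative, as were RLE size factors, no low-count filter, stricter gates, no lineage exclusions, deeper cells, no doublets, blocks and leaving out each library. Marked doublets were the cells with the highest Scrublet scores (scanpy 1.11.5), at a rate of 0.8% per 1000 cells. Cells were thinned to 1000 UMIs for shares. Levels (CPM) are UMIs per 1000000 UMIs of a class, and a count of 0 allows up to 3 UMIs. Intervals and these limits cover counting error only. Likeness used log2(CPM + 10). The 9 members were always named, and of each pathway list those with the lowest p in the contrast described. Some list genes that passed are counted but not reported here by name. Scripts were tested on simulated data.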

Additional observations from a re-analysis of the deposited data

How the results depend on the processing

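The higher levels in NK than in CD8 T cells passed in all 12 alternatives for Gzma, Gzmb, Prf1, Nkg7, Ccl5 and Eomes. For Tbx21 they passed in 4 of the 7 alternatives that tested it. Gzmb, Prf1, Eomes and Tbx21 were tested in the reported fit because of their NK levels, so their direction was given by the filter. Of 733 values of single members under an alternative, 37 changed sign, and none of these was past the threshold in the reported fit. The genotype tests rest on 2 libraries a group, with as few as 39 NK, 20 CD8 T and 25 natural killer-like T cells in a library. Genotype within CD4 T cells and its interaction with CD8 T cells were not run, because WT replicate 2 had 6 CD4 T cells and the minimum was 10. The primary granule and basophil gates, the shares without marked doublets or without a library, and the order of shares over all genes, were chosen after seeing the data. The cause of the changes below was not tested.

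The number of genes called for genotype was 1 in NK cells (28 without the low-count filter, 2 in DESeq2, 0 without lineage exclusions), 1 in natural killer-like T cells (30 without the filter, 2 in DESeq2, 0 with stricter gates, without lineage exclusions or without marked doublets), 0 in CD8 T cells (33 without the filter), 37 in plasmacytoid dendritic cells (307 without the filter, 13 without marked doublets), 38 over all cells (605 without the filter, 851 in DESeq2) and 33 in primary granule progenitors (515 without the filter, 104 in DESeq2). With the replicate number as a block, the counts were 0 in NK cells, 2 in natural killer-like T cells, 4 in CD8 T cells, 159 in plasmacytoid cells, 1165 over all cells and 1290 in primary granule progenitors. The block brought 3 member calls past the threshold, Nkg7 in plasmacytoid cells (1.34) and over all cells (0.68) and Gzma in primary granule progenitors (-2.45), and changed no other member's call. The labels do not say that a number marks a shared experiment, and same-numbered libraries deviated together with r = 0.135 in NK cells and 0.414 over all cells. Without one library at a time the counts ran from 0 to 14 in NK cells, 0 to 38 in natural killer-like T cells, 0 to 30 in CD8 T cells, 22 to 200 in plasmacytoid cells, 58 to 88 over all cells and 1 to 49 in primary granule progenitors.

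Between classes, 336 genes were called for NK against CD8 T cells (167 without the library block), 90 for NK against natural killer-like T cells (219 without the filter, 41 without lineage exclusions, 195 without marked doublets, 30 without the library block), 105 for natural killer-like T against CD8 T cells (161 without the filter, 45 in DESeq2, 24 without the library block), 42 for CD8 against CD4 T cells (92 without the filter, 70 in DESeq2, 16 without lineage exclusions, 15 without the library block) and 5886 for plasmacytoid against B lineage cells (3912 without the library block). Without one library at a time these ran from 218 to 313, 58 to 91, 29 to 139, 8 to 22 and 4690 to 5447. The interactions called 0 genes between NK and CD8 T cells (18 without the filter, 1 without lineage exclusions), 0 between NK and natural killer-like T cells (9 without the filter, 3 with stricter gates, 7 without lineage exclusions) and 1 between natural killer-like T and CD8 T cells (12 without the filter, 3 with stricter gates, 2 without marked doublets, 0 in DESeq2 and with RLE size factors).

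The genotype differences that changed sign were Tbx21 in NK cells (0.027 with stricter gates), Nkg7 in natural killer-like T cells (-0.023 without marked doublets), Gzma (0.061 in cells of at least 1000 UMIs), Prf1 (-0.069 without marked doublets, -0.036 with the block) and Ifng (0.094 with the block) over all cells, and Ccl5 in primary granule progenitors (-0.082 without marked doublets, -0.068 with the block). Nkg7 in plasmacytoid against B lineage cells became -0.0072 in cells of at least 1000 UMIs. Among the interactions, Eomes became -0.0069 without lineage exclusions (NK and CD8 T cells), Gzmb -0.17 in DESeq2 and -0.21 with stricter gates and Ccl5 0.27 without marked doublets (NK and natural killer-like T cells), and Nkg7 0.046 with stricter gates and 0.039 without lineage exclusions (natural killer-like T and CD8 T cells). The genotype difference in the share of NK cells became -1.96 percentage points for Gzmk, 3.34 for Ifng and -4.25 for Tbx21 at 2000 UMIs, and 6.02 for Ifng without thinning.

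Without one library at a time, the genotype difference ran from -0.40 to 0.41 for Tbx21 in NK cells, from -0.18 to 1.95 for Gzma and -0.16 to 0.27 for Nkg7 in natural killer-like T cells, and from -3.50 to 0.98 for Ccl5 in plasmacytoid cells. Over all cells it ran from -0.78 to 0.62 for Prf1, -0.34 to 1.24 for Ccl5, -0.49 to 1.11 for Eomes, -1.20 to 0.90 for Gzma, -1.86 to 2.59 for Ifng and -0.96 to 0.76 for Gzmb. In primary granule progenitors it ran from -0.42 to 0.047 for Nkg7 and -0.81 to 0.60 for Ccl5, and the plasmacytoid against B lineage difference of Nkg7 from -0.030 to 0.23. The differences in shares of NK cells ran from -3.67 to 1.08 percentage points for Nkg7, -6.94 to 0.261 for Ifng and -2.77 to 6.08 for Tbx21.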

Other observations

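In the cells with at least 20 UMIs on the basophil genes Mcpt8, Prss34 and Cpa3, Gzmb was at 12.3 and 17.4 CPM (UMIs per 1000000 UMIs of the cells) in the TLR9-/- replicates and at 3.20 and 21.0 in the WT replicates, from 27 UMIs, with the genotypes overlapping. BC018473, the one gene called for genotype in NK cells and in natural killer-like T cells, had 100 and 75 UMIs in the natural killer-like T cells of the TLR9-/- replicates and 0 in those of the WT replicates. The same was seen outside the cytotoxic classes. B lineage cells had 527 and 1044 UMIs of this gene in the TLR9-/- replicates and 0 in the WT replicates. It was named after its values were seen. Cst7, which encodes an inhibitor of the proteases that mature granzymes and perforin, was the one gene called for genotype among 12 tested of the granule list in plasmacytoid dendritic cells, where it was higher in TLR9-/- mice by 1.67 on the log2 scale (adjusted p = 0.0136 in edgeR). In that fit 0.374% of 9893 genes were called, 37 genes with the marked doublets and 13 without them. The primary granule genes summed to 5624 and 10178 CPM in the same TLR9-/- cells and to 2172 and 2355 CPM in WT cells, and their part in the Cst7 difference was not tested.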
